A study of Mus musculus with 6 samples.

Results

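The 10 genes described here mark astrocytes or their reactive state: Gfap, Vim, Aqp4, Aldh1l1, Gja1, Gjb6, Glul, S100b, Sox9 and Serpina3n. They were taken by symbol from tables of gene expression in mouse hippocampus, in which all 10 were listed among 15616 distinct gene names. Each value is taken to be an FPKM, a unit that was inferred because no header names it. An FPKM is the number of fragments scaled to transcript length and to the mapped total. It can be compared between genes because it is scaled to length. The hippocampi came from mice at 6 months of age, with 3 libraries under the wild type (WT) label and 3 under the APP/PS1 label. APP/PS1 mice carry an amyloid precursor protein with the Swedish mutations (APP695swe) and presenilin 1 lacking exon 9 (PS1-dE9). The labels name neither the promoter of the transgenes nor the strain, sex or litter, and they do not say that each library came from a separate animal, so the p-values speak only of the spread among these libraries, part of which may be technical. The tissue was whole hippocampus, in which fewer astrocytes and less RNA per astrocyte cannot be told apart.

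Astrocytes are the glial cells that clear glutamate and potassium from around synapses, pass water and ions at the vessel wall through their endfeet, and are joined to each other by gap junctions. Near amyloid deposits they are known to enlarge and to take on a reactive state, of which the filament protein GFAP is the classic stain. In hippocampus GFAP is abundant in resting astrocytes too. It also marks the stem cells of the dentate gyrus.

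Promoters are shown for 3 of the genes: Gfap and Vim, which encode the filament pair that defines reactive astrocytes, and Gja1, whose level varied most between libraries. RefSeq sequences of build GRCm38.p6 were matched by symbol for 8 of the 10 genes, all but Aqp4 and Sox9, and each runs from 250 bases before the start of transcription to 50 after it. Capitals mark matches, on either strand, to a STAT motif (TTCNNNGAA), an AP-1 motif (TGANTCA) or a TATA motif (TATAAA), none of which overlapped another. The Gfap region is chr11:102897151-102897450 on the minus strand, that of Vim is chr2:13574061-13574360 on the plus strand and that of Gja1 is chr10:56377050-56377349 on the plus strand.
Gfap: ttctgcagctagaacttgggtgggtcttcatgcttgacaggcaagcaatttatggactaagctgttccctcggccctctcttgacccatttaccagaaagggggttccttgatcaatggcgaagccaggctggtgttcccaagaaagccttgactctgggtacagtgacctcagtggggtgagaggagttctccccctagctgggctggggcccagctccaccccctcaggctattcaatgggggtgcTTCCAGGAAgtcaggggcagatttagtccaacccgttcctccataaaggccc
Vim: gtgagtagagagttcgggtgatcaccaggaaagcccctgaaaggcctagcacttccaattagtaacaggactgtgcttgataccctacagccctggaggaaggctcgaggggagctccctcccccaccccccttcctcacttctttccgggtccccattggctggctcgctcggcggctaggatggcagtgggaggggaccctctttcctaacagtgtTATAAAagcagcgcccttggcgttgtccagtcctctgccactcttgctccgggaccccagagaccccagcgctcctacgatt
Gja1: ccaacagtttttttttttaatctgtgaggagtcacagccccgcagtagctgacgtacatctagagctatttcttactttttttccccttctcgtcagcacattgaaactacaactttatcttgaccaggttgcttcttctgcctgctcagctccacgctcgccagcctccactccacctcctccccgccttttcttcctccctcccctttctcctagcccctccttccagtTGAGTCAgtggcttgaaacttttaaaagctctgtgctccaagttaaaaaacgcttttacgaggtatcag
The STAT motif was found in Gfap alone of the 8 promoters, and in 8.3% of all 32851 promoters of the same length. The AP-1 motif was found in Gja1 alone, against 7.81% of all promoters, and the TATA motif in Vim alone, against 13.6%. These matches are descriptions of the letters and not sites of binding.

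The labels were first set against the transgene. App, which encodes the amyloid precursor protein, stood at 69.8, 68.5 and 145.6 FPKM in WT-labelled replicates 1, 2 and 3, and at 153.1, 71.0 and 166.2 FPKM in APP/PS1-labelled replicates 1, 2 and 3. Prnp, which encodes the prion protein, divided them likewise, between 181 and 199 FPKM where App was low and between 457 and 472 FPKM where App was high. Thus 1 library under each label, WT replicate 3 and APP/PS1 replicate 2, went against that label. The groups below are named by label, and the comparison of the 10 genes is also given for the 4 libraries without these. Library sums of FPKM lay between 182355 and 185217, and their sequencing depth is unknown. Of the defining neuronal, oligodendrocyte, microglial and vascular markers none was listed at 0 in every library, nor were the 10 hippocampal neuron markers, whose FPKM summed to between 291 and 338.

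Levels differed widely among the 10 genes. Glul, the enzyme that turns glutamate into glutamine, had the highest mean over the 6 libraries, 294.5 FPKM, above 99.8% of the 13700 genes tested. Gfap followed at 60.3 FPKM, above 97.5% of them. Vim, the gene for the other type III filament protein of astrocytes, was lowest at 5.37 FPKM. In order of mean level between these stood S100b (33.5), Aqp4 (29.9), Sox9 (15.3), Serpina3n (12.9), Gjb6 (11.7), Gja1 (11.4) and Aldh1l1 (8.20 FPKM). Glul, Gfap and S100b lay apart over all libraries, as did Aqp4 from Sox9, Sox9 from Serpina3n and Aldh1l1 from Vim. Ranges overlapped between S100b and Aqp4, between Serpina3n and Gjb6, between Gjb6 and Gja1 and between Gja1 and Aldh1l1, so the order of these neighbours was not fixed beyond their spread.

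**Figure D1:**
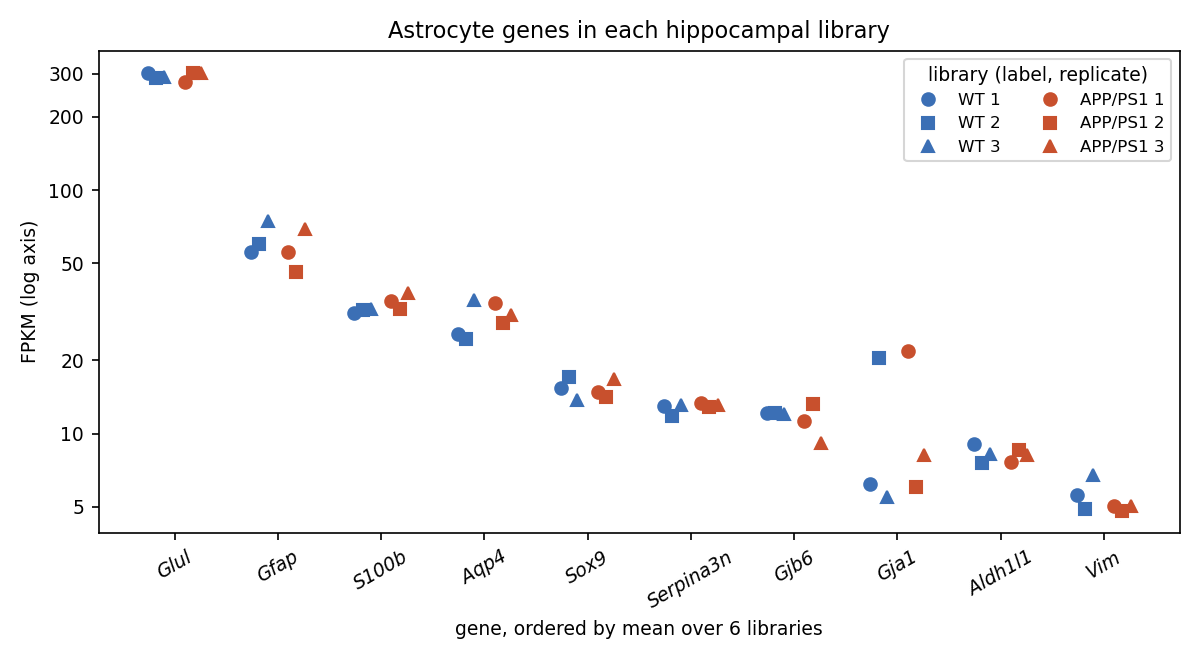
FPKM of the 10 astrocyte genes on a log axis, 1 point per library, blue for the WT label and red for the APP/PS1 label, with the marker shape giving the replicate number. Points of the 2 labels overlap for each gene, and Gja1 stands at 20.4 and 21.9 FPKM in 1 library of each label and between 5.52 and 8.20 FPKM in the other 4.

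Gfap and Vim encode intermediate filament proteins that assemble together in reactive astrocytes. Gfap was at 55.5, 60.2 and 74.8 FPKM under the WT label and 55.8, 46.1 and 69.5 FPKM under the APP/PS1 label, here and below in the order of replicates 1 to 3. The highest value was thus in a WT-labelled and the lowest in an APP/PS1-labelled library, the 2 that went against their labels by App. Means were 63.5 ± 10.04 and 57.1 ± 11.8 FPKM (SD, n = 3), a log2 fold change of -0.16 (95% confidence interval -0.57 to 0.25, limma adjusted p = 0.920). Without those 2 libraries the sign turned, to 0.11 (interval -0.19 to 0.40, limma adjusted p = 0.810). Vim was at 5.62, 4.92 and 6.77 FPKM under the WT label and 5.05, 4.81 and 5.06 FPKM under the APP/PS1 label. It too was highest in WT replicate 3 and lowest in APP/PS1 replicate 2. Its log2 fold change was -0.17 (interval -0.41 to 0.07, limma adjusted p = 0.832), and -0.05 in the 4 libraries. Vim is also made by ependymal and vascular cells and fibroblasts. The 9 ependymal markers in the tables, of 10 listed, summed to between 16.4 and 27.2 FPKM under the WT label, highest in WT replicate 3, and to between 14.6 and 21.9 FPKM under the APP/PS1 label. The 10 fibroblast and meningeal markers summed to 36.6, 38.6 and 40.6 FPKM under the WT label and 34.7, 43.7 and 28.7 FPKM under the APP/PS1 label, highest in APP/PS1 replicate 2, where Vim was lowest. The 10 endothelial and mural markers summed to 56.1, 59.7 and 64.5 against 61.8, 65.8 and 70.8 FPKM, highest in APP/PS1 replicate 3. The part of these cells in the Vim and Gfap values was not tested.

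Other filament genes did not separate by label either. Of 9 tested partners of the 10 listed, which include nestin, synemin and the neurofilaments, 3 had a positive and 6 a negative fold change (median -0.03 in log2), and 0 passed by limma at an adjusted p of 0.05 (0 had an unadjusted p under 0.05). Over all genes tested 49.6% were positive, 0.0219% passed and 6.69% had an unadjusted limma p under 0.05. Among the partners the smallest unadjusted p-values belonged to Krt222, at a log2 fold change of 0.10, and Ina, which encodes the neuronal filament internexin, at -0.08.

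Aqp4 encodes aquaporin 4, the water channel of the astrocyte endfoot. It was at 25.6, 24.5 and 35.5 FPKM under the WT label and 34.4, 28.6 and 30.6 FPKM under the APP/PS1 label. WT replicates 1 and 2 were below all other libraries, while WT replicate 3 was above them all. Means were 28.5 ± 6.05 and 31.2 ± 2.94 FPKM (SD, n = 3), a log2 fold change of 0.14 (interval -0.20 to 0.48, limma adjusted p = 0.917). In the 4 libraries the log2 fold change was 0.36 (interval 0.17 to 0.55), which did not pass over all genes (limma adjusted p = 0.332, with an unadjusted p of 0.00438).

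Other genes of the endfoot complex, which holds water and potassium channels to the basal lamina, were mostly positive. Of 9 tested besides Aqp4, 7 had a positive log2 fold change, with a median of 0.03, against 49.6% positive and a median of -0.001 among all genes tested. In the 4 libraries 5 of these 9 were positive. Kcnj10, the inward rectifier Kir4.1 that buffers potassium, was at 30.6, 26.7 and 27.4 FPKM under the WT label and 34.6, 31.4 and 32.1 FPKM under the APP/PS1 label. The labels did not overlap for Kcnj10, yet its log2 fold change of 0.20 did not pass (limma adjusted p = 0.658). Hepacam, the adhesion molecule GlialCAM, likewise did not overlap, at 23.2, 21.8 and 23.2 against 25.4, 24.5 and 25.6 FPKM, and differed by 0.14 in log2 (limma adjusted p = 0.692). Values without overlap by label were seen in 11.9% of all genes tested, and in 0 of the 10 astrocyte genes.

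Gja1 and Gjb6 encode connexin 43 and connexin 30, which form the gap junctions between astrocytes. Gja1 was at 6.18, 20.4 and 5.52 FPKM under the WT label and 21.9, 6.03 and 8.20 FPKM under the APP/PS1 label. One library of each label, WT replicate 2 and APP/PS1 replicate 1, thus had a level apart from the others. The highest library was 3.98 times the lowest, a ratio exceeded by 0.577% of the 7277 tested genes with a mean of at least 5 FPKM. Its log2 fold change between labels was 0.19 with a standard error of 0.64 (interval -1.40 to 1.78, limma adjusted p = 0.974), so a difference of more than 2-fold either way would lie inside the interval. Of the 13700 tested genes, 4 had at least 2 times the level of every other library in both WT replicate 2 and APP/PS1 replicate 1. Gja1 was the 1 of these 4 with a mean of at least 5 FPKM. The others included Glcci1, at 9.14 and 9.33 FPKM in those libraries and between 2.40 and 2.93 FPKM in the rest, and Vwc2l. This criterion was set after the values were seen, and such splits were not counted for other pairs of libraries.

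Gjb6 did not share that pattern. It was at 12.1, 12.2 and 12.1 FPKM under the WT label and 11.3, 13.2 and 9.18 FPKM under the APP/PS1 label, which lay on both sides of the WT-labelled values. The SD was 0.0494 FPKM under the WT label and 2.005 FPKM under the APP/PS1 label, and the log2 fold change was -0.12 (interval -0.38 to 0.15, limma adjusted p = 0.909). Without APP/PS1 replicate 3 it was 0.0093. Of the 6 other connexin genes tested, 3 were positive and 3 negative. Gjb2, for the astrocyte and meningeal connexin 26, was at 3.54, 3.83 and 4.50 against 3.35, 3.59 and 2.02 FPKM, lowest in APP/PS1 replicate 3 as Gjb6 was (log2 fold change -0.33, limma adjusted p = 0.806, and -0.14 without that library). The connexins of oligodendrocytes, Gjb1 and Gjc3, had log2 fold changes of 0.27 and 0.18 (limma adjusted p = 0.696 and 0.768), that of Gjb1 being 0.16 without WT replicate 2.

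Glul and Aldh1l1, 2 metabolic enzymes used as astrocyte markers, were the steadiest of the set together with Serpina3n and S100b. Glul was at 304, 289 and 291 FPKM under the WT label and 278, 303 and 302 FPKM under the APP/PS1 label, a range of 1.09-fold. A wider range was seen in 90.9% of tested genes with a mean of at least 5 FPKM. Its log2 fold change was -0.0023 (interval -0.12 to 0.11, limma adjusted p = 0.996), which bounds a difference on this scale more closely than for any other of the 10 genes. Aldh1l1, a folate enzyme, was at 9.03, 7.60 and 8.23 FPKM under the WT label and 7.64, 8.53 and 8.19 FPKM under the APP/PS1 label. WT replicate 2 and APP/PS1 replicate 1, the libraries with high Gja1, had the 2 lowest values of both enzymes. The log2 fold change of Aldh1l1 was -0.02 (interval -0.20 to 0.15, limma adjusted p = 0.974).

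Genes that work with these enzymes did not pass between labels either. Of 10 tested genes of the glutamate and glutamine cycle besides Glul, 7 were positive with a median of 0.06, and 0 passed by limma (0 with an unadjusted p under 0.05). Slc1a2, the main astrocyte glutamate transporter GLT-1, was at 270.5, 295 and 289.9 FPKM against 291, 286 and 301 FPKM (log2 fold change 0.04, limma adjusted p = 0.934). Slc1a3, the transporter GLAST, differed by 0.08 in log2 (limma adjusted p = 0.886). Slc38a1, a glutamine transporter, was at 13.9 FPKM in WT replicate 2 and between 27.3 and 29.5 FPKM in all other libraries, and its log2 fold change of 0.34 (limma adjusted p = 0.884) was 0.03 without that library. Of the 6 other folate enzymes tested, 6 were positive with a median of 0.04, Shmt2 among them at 0.06, and 0 passed (0 with an unadjusted p under 0.05). Among all genes tested 49.6% were positive, 0.0219% passed and 6.69% had an unadjusted limma p under 0.05. With so small a share passing, a count of 0 in short lists says little about them.

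S100b encodes a calcium-binding protein of astrocytes that oligodendrocytes also make. It was at 31.3, 32.1 and 32.5 FPKM under the WT label and 35.0, 32.4 and 37.8 FPKM under the APP/PS1 label. The labels overlapped by 1 library, since APP/PS1 replicate 2 was just under WT replicate 3. Means were 32.0 ± 0.580 and 35.0 ± 2.69 FPKM (SD, n = 3). The log2 fold change of 0.13 (interval -0.02 to 0.27) had the smallest unadjusted p of the 10 genes, 0.0812 (limma adjusted p = 0.797). In the 4 libraries it was 0.19 (interval 0.03 to 0.35, limma adjusted p = 0.505, with an unadjusted p of 0.0279). Oligodendrocyte markers were high in the same libraries. Their 10 genes summed to 428, 383 and 484 FPKM in the WT-labelled and to 506, 458 and 547 FPKM under the APP/PS1 label (exact two-sided permutation p = 0.2, where 0.1 is the smallest possible with 3 against 3, and 0.875 adjusted over 10 marker lists). Taken gene by gene, 10 of the 10 had a positive log2 fold change, with a median of 0.21, 5 with an unadjusted p under 0.05 and 0 past the adjusted threshold by limma. With 4 libraries, 8 of them had an unadjusted p under 0.05 and the median was 0.32. Among all genes tested, 6.69% had an unadjusted limma p under 0.05 with 6 libraries and 9.18% with 4. Both S100b and this sum were highest in APP/PS1 replicate 3 and next highest in APP/PS1 replicate 1, and the part of oligodendrocytes in S100b was not tested. Choroid plexus markers were also mostly positive, 9 of 10 with a median of 0.23, and summed to 1080, 1217 and 867 FPKM under the WT label and 1212, 1404 and 1127 FPKM under the APP/PS1 label, highest in APP/PS1 replicate 2. Their part in the values of S100b, the other S100 genes and the endfoot genes was not tested either; with 4 libraries, 8 of the 10 were positive, with a median of 0.10. Among the other S100 genes, 7 of 8 were positive with a median of 0.15, with S100a6 at 0.14 and S100a13 at -0.10. The 1 with an unadjusted p under 0.05 was S100pbp, at 0.32 (limma adjusted p = 0.692), which was listed with the family but encodes a partner that binds an S100 protein. Without APP/PS1 replicate 3 its value was 0.19.

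Sox9 encodes a transcription factor that sets glial fate and stays nuclear in adult astrocytes. It was at 15.3, 17.1 and 13.7 FPKM under the WT label and 14.9, 14.2 and 16.7 FPKM under the APP/PS1 label, all APP/PS1-labelled values lying inside the WT-labelled range. The log2 fold change was -0.0089 (interval -0.22 to 0.21, limma adjusted p = 0.991). Of 16 other gliogenic factors, 7 were positive and 9 negative with a median of -0.04. Hes5, a Notch target, was at 4.48, 1.29 and 3.12 against 5.09, 4.72 and 5.70 FPKM, without overlap (log2 fold change 0.72, limma adjusted p = 0.760, and 0.37 without WT replicate 2). Stat3, the cytokine-activated factor that is needed for astrocyte scar formation, was at 4.61, 4.42 and 4.64 against 3.65, 3.91 and 4.03 FPKM, also without overlap (log2 fold change -0.19, limma adjusted p = 0.665).

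Serpina3n encodes a secreted inhibitor of serine proteases and is among the genes most induced in reactive astrocytes. Here it was at 12.9, 11.8 and 13.2 FPKM under the WT label and 13.4, 12.9 and 13.1 FPKM under the APP/PS1 label. Apart from WT replicate 2 all libraries lay between 12.9 and 13.4 FPKM. Means were 12.6 ± 0.700 and 13.1 ± 0.225 FPKM (SD, n = 3), a log2 fold change of 0.05 (interval -0.08 to 0.18, limma adjusted p = 0.921). In the 4 libraries it was 0.09 (interval -0.09 to 0.26, limma adjusted p = 0.730). Serpina3n belongs to a cluster of related genes, and the sources used here do not say how any reads shared between them were counted. Of the 17 other serpins listed 6 were tested, 3 positive and 3 negative with a median of -0.10. Serpinh1, the collagen chaperone HSP47, was at 9.31, 9.90 and 8.31 against 5.81, 9.15 and 6.50 FPKM (log2 fold change -0.34, limma adjusted p = 0.755). Serpinf1 and Serpinb1a had log2 fold changes of -0.34 and 0.29 (limma adjusted p = 0.781 and 0.811). With single libraries left out these ranged from -0.51 to -0.22 for Serpinh1, -0.47 to -0.21 for Serpinf1 and 0.13 to 0.42 for Serpinb1a, the smallest size being without APP/PS1 replicate 1 for Serpinh1 and without APP/PS1 replicate 3 for the others.

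Of the 10 genes, 4 had a positive and 6 a negative log2 fold change between labels, and their median was -0.0056, against -0.0009 over all genes tested. By limma with Benjamini-Hochberg adjustment over 13700 genes, 0 of the 10 passed an adjusted p of 0.05 (0 had an unadjusted p under 0.05). Over all genes tested 0.0219% passed, and 6.69% had an unadjusted p under 0.05. In the 4 libraries 5 of the 10 were positive with a median of 0.03, 0 passed (2 had an unadjusted p under 0.05, Aqp4 and S100b), and 0.197% of all genes passed (9.18% with an unadjusted p under 0.05). There the log2 fold changes not given above were -0.03 for Glul, -0.06 for Aldh1l1, -0.04 for Sox9, -0.23 for Gjb6 and 0.23 for Gja1. A p that misses the threshold does not show that levels were equal, and the intervals give the differences that these libraries leave possible.

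**Figure D2:**
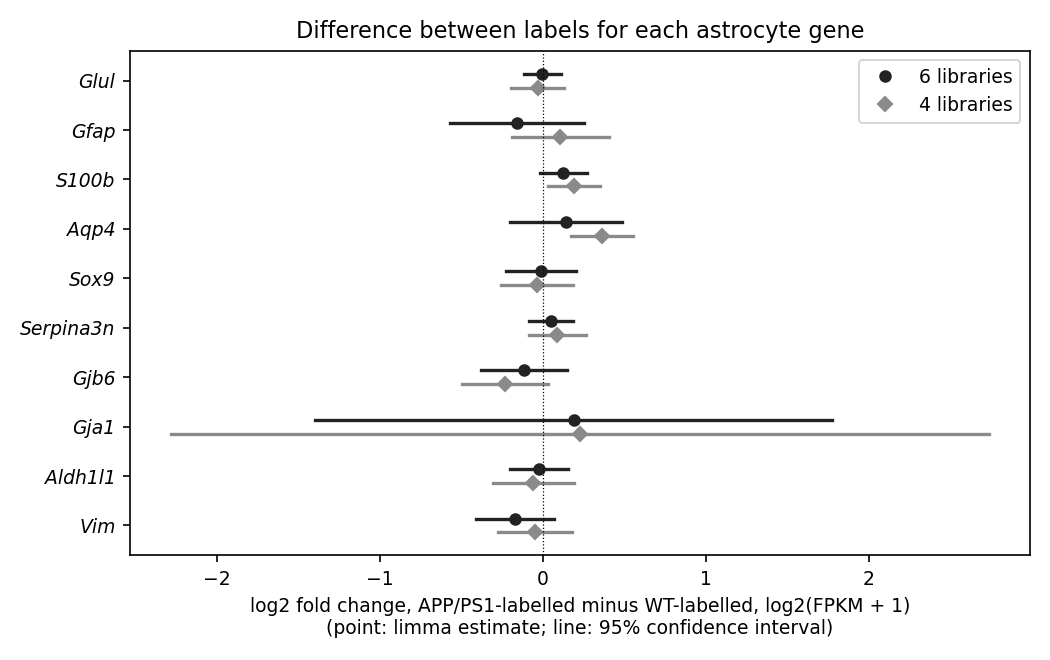
Log2 fold change of each astrocyte gene, APP/PS1-labelled minus WT-labelled, with 95% confidence intervals from limma, black for all 6 libraries and grey for the 4 without WT replicate 3 and APP/PS1 replicate 2. With 6 libraries every interval includes 0. With 4, those of Aqp4 (0.17 to 0.55) and S100b (0.03 to 0.35) do not, and Gja1 has the widest interval in both.

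Some genes followed the level of App and Prnp across libraries rather than the label. Aqp4 was between 30.6 and 35.5 FPKM in the 3 libraries with high App and Prnp (WT replicate 3, APP/PS1 replicates 1 and 3) and between 24.5 and 28.6 FPKM in the other 3. S100b (32.5 to 37.8 against 31.3 to 32.4 FPKM) and Serpina3n (13.1 to 13.4 against 11.8 to 12.9 FPKM) also did not overlap, though the gaps were narrow. Gjb6 was lower where App was high, at 9.18 to 12.07 against 12.09 to 13.19 FPKM, with its nearest values almost touching. The other 6 genes, Gfap among them, overlapped. Over all genes tested 12.4% did not overlap in this arrangement, 6.83% higher and 5.6% lower. Libraries were arranged so only once their values were known, and differences by App level were not tested.

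**Figure D3:**
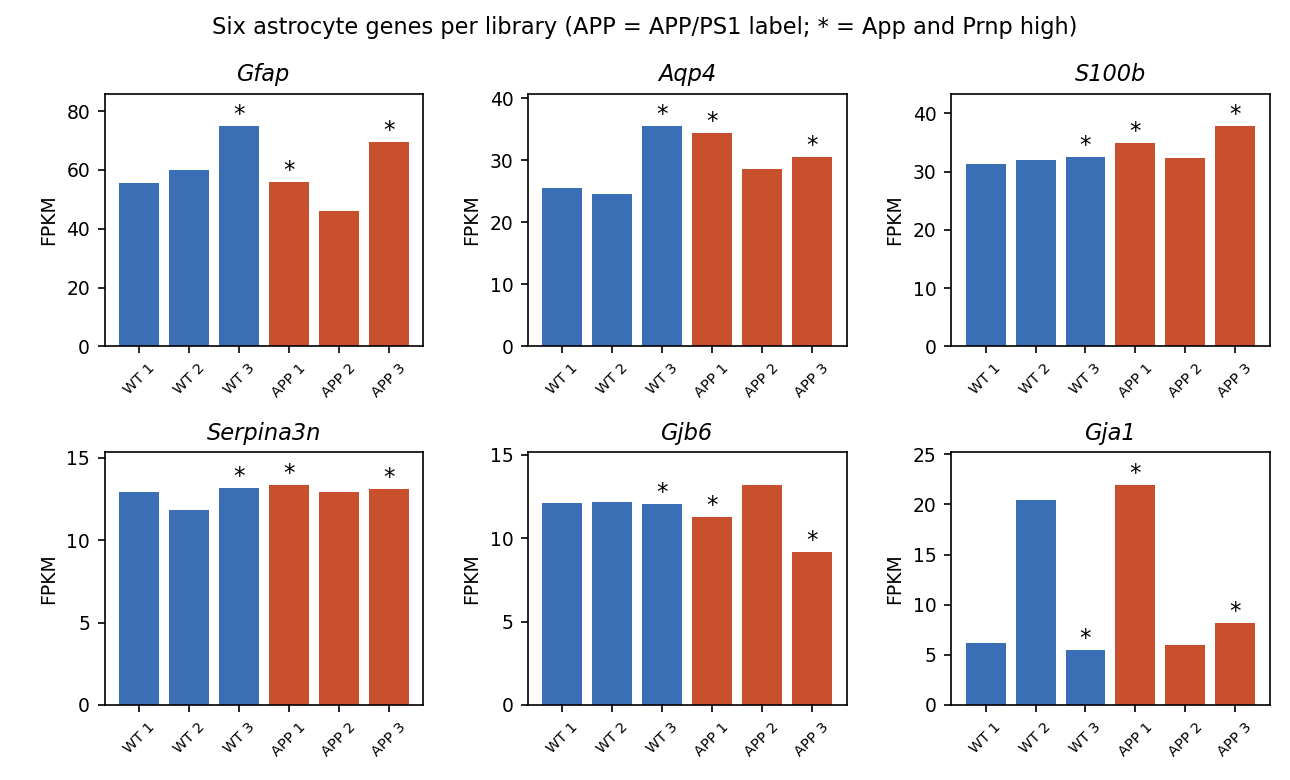
FPKM per library of 6 astrocyte genes, as bars from 0, blue for WT-labelled and red for APP/PS1-labelled libraries, with an asterisk where App and Prnp were high. Aqp4 is above 30 FPKM in the 3 libraries with an asterisk and below 29 FPKM in the others, while Gja1 is high in WT replicate 2 and APP/PS1 replicate 1, of which 1 carries an asterisk.

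Wider lists of astrocyte genes placed the 10 in context, and 0 of their genes passed by limma at an adjusted p of 0.05. Among 50 other identity genes tested of 52 listed, 31 were positive with a median of 0.02. An unadjusted p under 0.05 was seen in 6.69% of all genes tested and in 5 of these 50. The 5 included Kcnj10 and Hepacam above and Grm3, a metabotropic glutamate receptor, at 0.12. Also among them were Cst3, the protease inhibitor cystatin C, at -0.22 and Htra1, a secreted protease, at -0.15. Cst3 was at 271, 289.9 and 286 against 263, 210.3 and 256 FPKM (limma adjusted p = 0.731). It was lowest in APP/PS1 replicate 2, and without that library its log2 fold change was -0.12. In the 4 libraries 23 of the 50 were positive, with a median of -0.02.

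Some genes of the reactive state were not listed or were low, but not all. Of 12 genes shared by reactive astrocytes after different injuries, 9 were in the tables and 6 were tested, 3 positive and 3 negative with a median of -0.02. Cd44, the hyaluronan receptor, lay between 1.08 and 1.73 FPKM in the 6 libraries, Osmr, the oncostatin M receptor, between 0.627 and 0.907 FPKM, and Steap4 between 0.367 and 0.726 FPKM. Synm, for synemin, was higher, between 7.08 and 11.9 FPKM. Hspb1, the small heat shock protein HSP27, was at 14.6, 10.6 and 12.7 FPKM under the WT label and 5.58, 10.3 and 4.15 FPKM under the APP/PS1 label. This was the 1 gene of the list with an unadjusted p under 0.05 (log2 fold change -0.90, limma adjusted p = 0.692), and APP/PS1 replicate 2 lay close to the WT-labelled values. Among all genes tested 6.69% had an unadjusted limma p under 0.05. Cp, for ceruloplasmin, had a log2 fold change of -0.23.

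Lists of astrocyte states tied to inflammation (A1) or ischaemia (A2) gave 7 and 5 tested genes of 12 listed each, with medians of -0.06 and 0.01. C3, the complement gene used to mark the A1 state, was between 0.411 and 1.32 FPKM and below the filter. H2-D1, an MHC class I gene of the A1 list that shares sequence with its neighbours, was at 4.96, 1.04 and 1.20 FPKM under the WT label and 5.94, 4.24 and 7.68 FPKM under the APP/PS1 label. Its log2 fold change of 1.19 did not pass (limma adjusted p = 0.737), and WT replicate 1 lay among the APP/PS1-labelled values. Serping1, the C1 inhibitor, had a log2 fold change of -0.28. In the A2 list Tm4sf1 had -0.14 and S100a10 0.20. Of 18 genes described in astrocytes of amyloid models, 8 were positive and 10 negative with a median of -0.02. The smallest unadjusted p-values there were for Cryab, a small heat shock protein that oligodendrocytes also make (log2 fold change -0.33, limma adjusted p = 0.731, and -0.19 without WT replicate 1), and Dbi, a benzodiazepine receptor ligand (log2 fold change -0.14, limma adjusted p = 0.741).

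Genes of the cytokine and growth factor signals that act on astrocytes had 8 positive and 10 negative members of 18 tested, with a median of -0.02. The 3 with an unadjusted p under 0.05 were all lower in the APP/PS1-labelled libraries. Such genes made up 6.69% of all genes tested, and 525 of these 916 were lower. Besides Stat3 the 3 genes of this list were Cebpb, a transcription factor of the inflammatory response, and Il1r1, the receptor of interleukin 1. Cebpb was at 12.2, 13.4 and 14.8 against 8.73, 10.7 and 9.11 FPKM, without overlap (log2 fold change -0.46, limma adjusted p = 0.367). Il1r1 was at 2.73, 2.87 and 3.29 against 1.89, 2.65 and 2.21 FPKM (log2 fold change -0.29, limma adjusted p = 0.696). Cntfr, the receptor of ciliary neurotrophic factor, had -0.12 (limma adjusted p = 0.752). Without the 2 libraries that went against their labels, 0 genes of these astrocyte lists passed by limma (0 to 7 per list had an unadjusted p under 0.05). Among all genes tested there, 9.18% had an unadjusted limma p under 0.05. The list medians there, leaving out the 10 genes, lay between -0.13 for the serpins and 0.11 for the S100 family. The sign of the median turned for 5 of these lists, to -0.02 for the other identity genes, 0.08 for A1, 0.01 for the amyloid-model genes, 0.0073 for the filament partners and 0.04 for the gliogenic factors.

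**Figure D4:**
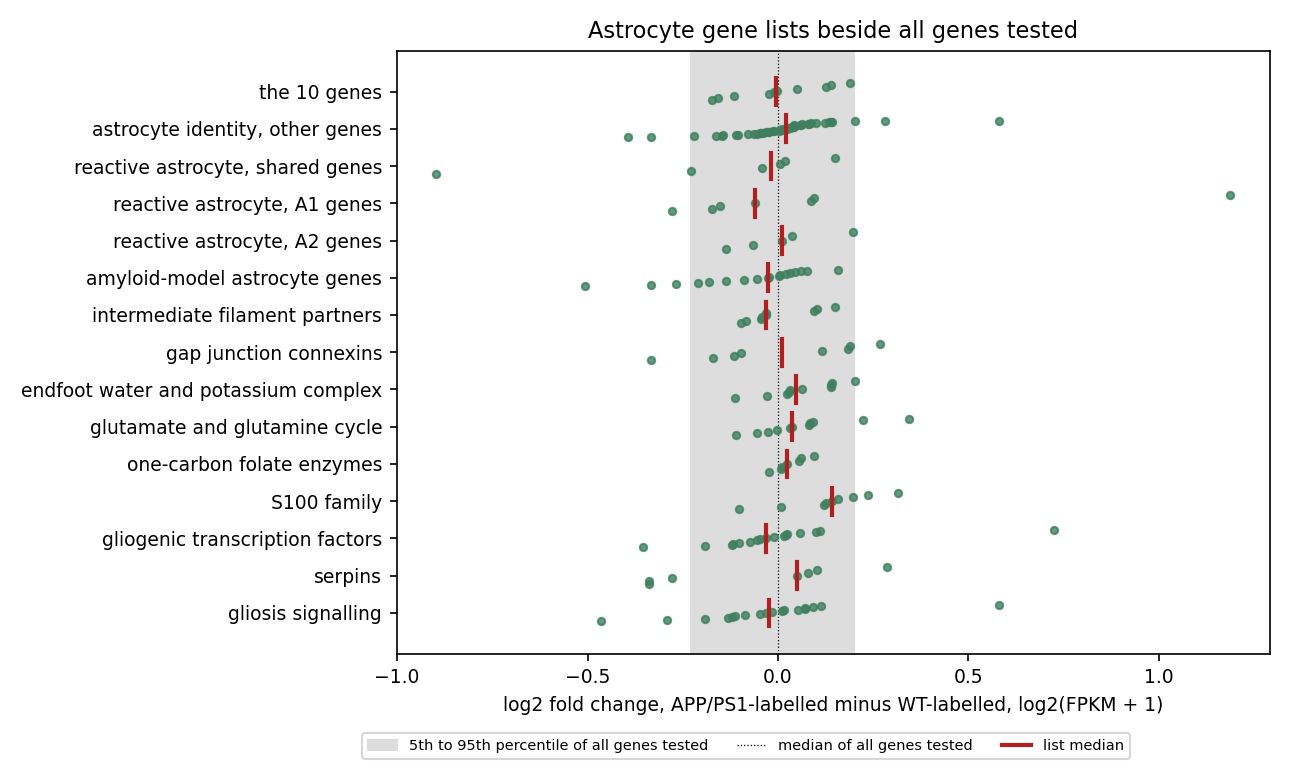
Log2 fold change of each tested gene, APP/PS1-labelled minus WT-labelled, by list, as green points with the list median as a red bar. The grey band runs from the 5th to the 95th percentile of all genes tested, -0.23 to 0.20, and every list median lies inside it, with the 10 genes kept in their lists, the highest being that of the S100 family at 0.14.

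The 10 genes did not vary together from library to library. Over the 45 pairs, Pearson's r on log2(FPKM + 1) across 6 libraries was positive for 19 and negative for 26, with a median of -0.09. The highest was 0.83 for Aldh1l1 with Glul, followed by 0.77 for Aqp4 with Serpina3n and 0.64 for Gfap with Vim. The lowest was -0.91 for Gjb6 with S100b, followed by -0.86 for Aldh1l1 with Gja1. The points of each pair come from the same libraries and share their scaling, and with 6 points these values are descriptions.

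In the search for similar patterns, symbols ending in Rik, symbols of Gm plus digits and names listed more than once were left out. Among the rest, the genes whose pattern over the 6 libraries was most like that of Gfap were Slc7a5, an amino acid transporter (r = 0.99), Pcdhga10, a clustered protocadherin (0.988), and Gpaa1 (0.981). Slc7a5 was at 11.7, 12.3 and 14.1 FPKM under the WT label and 12.1, 10.3 and 13.3 FPKM under the APP/PS1 label, the same order as Gfap. Closest to Aqp4 were Fnip1 (0.998), Xiap (0.995) and Usp1 (0.99), and closest to Serpina3n were Abhd18 (0.984), Exoc2 (0.983) and Tmem41b (0.981). None of these genes is in the astrocyte lists used here, and with 6 libraries these values of r are descriptions.

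No circular RNA of the same libraries could be tied to these genes. Of 2246 circular RNAs, 1989 had only a database number that was not paired with a gene here, and 257 had coordinates. The submitters' processing notes list mm9, yet 98.8% of the 257 lay inside a gene of the GRCm38.p6 RefSeq table, against 31.5% once moved by 1000000 bases. Moved by 10000 bases forward or back, 85.2% and 89.5% still lay inside a gene, so small offsets are told apart less well. At their listed coordinates, 0 of the 257 overlapped a gene of the set in GRCm38.p6.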

How the data were processed

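Total RNA of hippocampus was sequenced in 6 libraries, 3 per label, from Trizol extracts with an Illumina TruSeq kit, per the labels' protocols. The gene values deposited by the authors were taken to be FPKM. No header names the unit. It was inferred from decimal values, from library sums too low for TPM and from StringTie, listed with FastQC, HISAT2 and the build mm9 in the submitters' processing notes, without versions or roles. The circRNA tables deposited by the authors hold read counts, used here only to look for circles of the 10 genes.

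Genes reaching 1 FPKM in 3 or more libraries (13700 of 15639 rows) were fitted with limma 3.58.1 (R 4.3.3, trend and robust settings) on log2(FPKM + 1), the label being the single term, with Benjamini-Hochberg adjustment over all genes at a threshold of 0.05. Fold changes are on that scale and understate those of low genes. All 10 genes passed the filter. Summed marker levels were compared by an exact two-sided permutation test (SciPy 1.17.1). The genes and lists were chosen with earlier results of these data known. Named by rule were the 10 genes, App and Prnp, and up to 4 genes of each list by smallest p. So were the 3 genes closest to Gfap, Serpina3n and Aqp4, with symbols ending in Rik, symbols of Gm plus digits and repeated names left out. Not all genes named by rule are printed. Added after their values were seen were Slc1a2, Slc1a3, Grm3, Cd44, Osmr, Steap4, C3, Glcci1 and Vwc2l. Tested on simulated data for 13700 genes, limma found 65% of changes of 1.5-fold and 89% of those of 2-fold and made 11 false calls. There the genes were independent and every library followed its label. Here 1 library under each label went against it by App and Prnp, so these shares need not hold. App and Prnp themselves did not pass with 6 libraries (limma adjusted p = 0.910 and 0.917). Alternatives were other filters, pseudocounts, scalings and weights (edgeR 4.0.16 gave the TMM factors), the replicate number as a block, and libraries left out. Depth behind FPKM is unknown, so no count test was run.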

Additional observations from a re-analysis of the deposited data

How the results depend on the processing

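Over 14 alternatives, 0 of the 10 genes passed by limma in any, and the smallest adjusted p was 0.332. The sign of the log2 fold change did not turn in any of these for Vim, Aqp4, S100b and Serpina3n, but single libraries moved its size: with each left out in turn it ranged from -0.2643 to -0.0677 for Vim, 0.0453 to 0.3027 for Aqp4, 0.0727 to 0.1802 for S100b and 0.0082 to 0.0782 for Serpina3n. It turned for 6 genes. For Gfap it turned in the 4 libraries alone (0.11), an alternative chosen after seeing the data, and ranged from -0.31 to -0.02 with each library left out in turn. The same ranges were -0.0784 to 0.033 for Aldh1l1, -0.32 to 0.74 for Gja1, -0.23 to 0.0093 for Gjb6, -0.0243 to 0.0376 for Glul and -0.0842 to 0.0652 for Sox9. Quantile scaling turned Glul to 0.0594 and Sox9 to 0.0059, and TMM scaling turned Glul to 0.00072. The summed microglial markers turned from 0.328 FPKM to -0.056 as a mean of log2 values. Over all genes, 1 was higher and 2 lower at an adjusted p of 0.05. Array weights gave 2 higher, the 4 libraries 11 higher and 16 lower, and leaving out each library in turn between 1 and 8 higher and between 1 and 22 lower. The cause was not tested. The labels tie same-numbered replicates by number alone. Over all genes tested, r of their deviations from the label means was 0.01, -0.056 and -0.094, and not every library correlated best with its own number. Such values cannot show whether the libraries were paired. With the replicate number as a block limma gave 1 higher and 0 lower (360 and 461 with an unadjusted p under 0.05).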
